A study of Mus musculus with 4 samples.

Results

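The genes described here are 6 genes of the fibroblast extracellular matrix and contractile apparatus: the collagens Col1a1, Col1a2 and Col3a1, the matrix glycoproteins Fn1 and Thbs1, and the smooth muscle actin Acta2. Their loci were taken by position, as those with a transcript ID that overlap 6 windows set around these genes in the mm9 build. The rule uses no expression value, but the genes were chosen with earlier results of these data known. The windows held 7 of the 17576 loci in the table, because the Fn1 window took a second locus listed over the same span. All 7 carry transcript IDs and no gene name, so names were given by window. In the Fn1 window the locus with more transcript IDs was taken as Fn1, and the other is called unnamed here. All libraries came from mouse embryonic fibroblasts (MEFs) of strain C57BL/6 with an H3.3-HA knock-in, in which a cDNA for the tagged histone H3.3 stands in place of H3f3b. The knock-in was therefore shared by every group. The naive group had not met interferon-beta before and the pretreated group had, and both were then given 100 U/ml of interferon-beta for 1 h. How long the pretreatment lasted, and how long before the second dose it ended, the labels do not say. There was 1 library a group. The values therefore carry no replicate error, and an effect of pretreatment and variation between cultures cannot be told apart. Of the study's 4 samples, the 2 at 0 h were not analysed here, so the response to 1 h of interferon within each state was not computed.

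Fibroblasts make most of the collagen of connective tissue. Type I collagen is a triple helix built from the products of Col1a1 and Col1a2, type III collagen is a helix of the Col3a1 product alone, and both assemble into fibrils outside the cell. Fibronectin, the product of Fn1, binds integrins on the cell surface and guides the deposition of collagen, while thrombospondin-1, the product of Thbs1, is a secreted glycoprotein that binds matrix and cell receptors and can activate latent TGF-beta. Alpha smooth muscle actin, from Acta2, is built into the stress fibres of contractile fibroblasts. Interferon-beta acts through a surface receptor and JAK kinases to switch on antiviral genes, and interferons are known to lower collagen synthesis in cultured fibroblasts.

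RefSeq entries for the sequence upstream of the start were matched for 3 of the 6 genes, Acta2, Col1a2 and Col3a1. The stretches below are shown for these 3 because the other genes had no matched entry, and no link to the levels was tested. They come from GRCm38.p6, not from the build of the expression table, and run 5′ to 3′ on the gene's strand. Bases inside an annotated exon of the gene are left out, except for a short site of Acta2. For Col3a1 the 250 bases before the start, on the plus strand at chr1:45311288-45311537, are printed. For Col1a2 the stretch on the plus strand at chr6:4505370-4505492 is printed. For Acta2, the site on the minus strand at chr19:34255438-34255467 is printed. Capitals mark motif matches on either strand.
Col3a1: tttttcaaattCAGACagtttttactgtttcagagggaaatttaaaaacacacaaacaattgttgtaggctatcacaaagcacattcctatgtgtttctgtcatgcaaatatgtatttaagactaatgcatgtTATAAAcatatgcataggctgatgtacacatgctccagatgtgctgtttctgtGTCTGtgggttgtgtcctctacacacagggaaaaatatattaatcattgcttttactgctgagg
Col1a2: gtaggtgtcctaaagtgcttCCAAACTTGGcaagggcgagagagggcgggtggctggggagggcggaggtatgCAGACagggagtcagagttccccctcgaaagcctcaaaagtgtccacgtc
Acta2: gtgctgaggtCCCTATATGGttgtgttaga
The motifs searched on both strands in the 250 bases before the start were the core of the interferon-stimulated response element, the CArG box bound by serum response factor, the TATA box (TATAAA), the CCAAT box (CCAAT) and the SMAD box (CAGAC). No match to the core of the response element, searched with the bases between its repeats left free, lay in any of the 3 windows, and 2.98% of the 32851 windows of the RefSeq table held one. The SMAD box occurred in all 3 windows, at 2 places in that of Col3a1, and in 42.2% of all windows. TATAAA was found in the Col3a1 window, as in 12.4% of all windows, and CCAAT in the Col1a2 window, outside the printed stretch, as in 33.8% of all windows. A strict CArG box was in none of the 3 windows and in 1.47% of all. With 1 other base allowed in the inner 6, a form added after the data were seen, matches lay at 2 places in the Acta2 window, including CCCTATATGG, and at 1 place in that of Col1a2 (CCAAACTTGG), against 8.59% of all windows. These matches describe letters in the windows and no more.

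Levels were given by the authors as FPKM, fragments scaled by the length of the transcript and by the number of mapped fragments. The scale is meant to let genes of different length be compared. The sample descriptions name scTSS-seq while the series title names RNA-seq, and the values were treated as RNA-seq. Comparisons of level between genes rest on that reading, which was not checked. The table holds no read counts. From loci without a transcript ID listed at 0 in one library, the depth of the pretreated library was estimated at 0.492 of that of the naive library (14 loci). The estimate assumes that small read counts can be recovered from the deposited p-values of such loci, and this was not checked. A lower depth would make low values less precise in the pretreated library. Most loci had slightly lower values in pretreated cells: among 10228 loci that averaged at least 1 FPKM over the libraries, the median difference in log2(FPKM + 1), pretreated minus naive, was -0.16, and 62.8% of differences were below 0. Among the 711 loci with a transcript ID that averaged at least 100 FPKM, a class as abundant as most of the 6 genes, the median difference was -0.08 and 57.2% were below 0.

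All 3 collagen genes, and Fn1, had lower levels in pretreated than in naive cells, by 1.61-fold to 2.80-fold, while Acta2 differed by 1.12-fold and Thbs1 had the higher level in pretreated cells. In bulk RNA, fewer cells that express a gene and less of its RNA per cell cannot be told apart. The 6 loci compared and tested below are Col1a1, Col1a2, Col3a1, Fn1, Acta2 and the unnamed locus in the Fn1 window. Thbs1 was left out, because its comparison has status FAIL in the authors' deposited table. Col1a1 was the 1 locus of the 6 compared that was at least 2-fold lower, a size reached by 7.12% of all compared loci and 7.17% of the abundant ones. None of the 6 was at least 2-fold higher, against 2.83% of compared loci. Of the 6 tested loci, 0 were called in the authors' deposited table at a q-value under 0.05, against 11.9% of tested loci called lower and 3.91% called higher, and 1 of the 6, Fn1, had an unadjusted p-value under 0.05, against 28.4% of the 13388 tested loci. At a lower bar of 1.5-fold, 4 of the 6 compared loci were lower, against 20.6% of all compared loci and 19.7% of the abundant ones. These 4 are Col1a1, Col1a2, Col3a1 and Fn1. At that bar 0 of the 6 were higher, against 7.49% of all compared loci. With loci of status FAIL kept, 1 was higher at that bar, Thbs1.

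**Figure D1:**
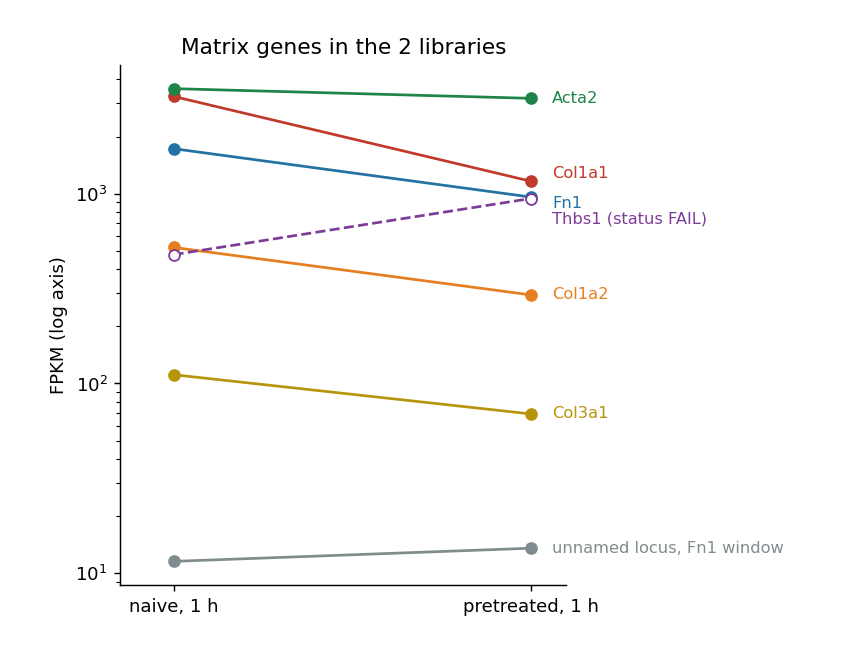
FPKM on a log axis of the 7 loci in the naive and the pretreated library, 1 library each; each line joins the values of 1 locus, and the dashed line with open points is Thbs1, whose comparison has status FAIL in the deposited table. The 3 collagens and Fn1 slope downward, Acta2 is nearly level at 3578 and 3181 FPKM, and Thbs1 slopes upward from 477 to 943 FPKM.

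Col1a1 encodes the alpha-1 chain of type I collagen (locus XLOC_003634, transcript uc007kzn.1, chr11:94797584-94814638 in mm9). Its level was 3255 FPKM in naive cells and 1164 FPKM in pretreated cells. It was thus 2.80-fold lower in pretreated cells, a difference of -1.48 in log2(FPKM + 1). Among the 15853 loci with a transcript ID and a span of at least 300 bp, it ranked 49 by level in naive and 122 in pretreated cells. Only 12 of the 711 abundant loci, Col1a1 included, had a difference this low or lower. Of these 12, the authors' deposited table called 11, and Col1a1 is the one it did not call, with p = 0.0701 and a q-value of 0.218.

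Col1a2, which encodes the other chain of type I collagen (XLOC_021144, chr6:4455697-4491543), had 521 FPKM in naive cells and 293 FPKM in pretreated cells. That is 1.78-fold lower, or -0.83 in log2(FPKM + 1), and the authors' deposited table gives a q-value of 0.375. Col3a1, the gene of type III collagen (XLOC_000119, chr1:45368383-45406551), had 111 FPKM in naive cells and 69.1 FPKM in pretreated cells. It was 1.61-fold lower, a difference of -0.68, with a q-value of 0.330 in the authors' deposited table. The Col1a1 level was 6.25 times that of Col1a2 in naive cells and 3.97 times in pretreated cells. Whether the changes of these genes differ was not tested, and the 95% intervals of their log2 ratios under the authors' test overlap. The level of Col1a2 over that of Col3a1 was 4.69 in naive and 4.24 in pretreated cells. A ratio of genes within a library does not depend on any common scaling of that library.

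Fn1, the gene of fibronectin (XLOC_000905, with 10 transcript IDs, chr1:71632092-71709417), had 1726 FPKM in naive cells and 960.5 FPKM in pretreated cells. The level was 1.80-fold lower, a difference of -0.85 in log2(FPKM + 1). Of the members it came nearest to a call, with p = 0.00845 and a q-value of 0.0524 in the authors' deposited table. Col1a2 stood at 0.302 of the Fn1 level in naive and 0.305 in pretreated cells. The unnamed locus XLOC_000207 (transcripts uc007bke.1 and uc007bkf.1) is listed over the same span as Fn1, so the division of reads between them is uncertain. It was far lower, at 11.5 FPKM in naive cells and 13.5 FPKM in pretreated cells, and its q-value in the authors' deposited table is 0.750.

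Thbs1, the gene of thrombospondin-1 (XLOC_014465, chr2:117937636-117952871), had 477 FPKM in naive cells and 943 FPKM in pretreated cells. Its pretreated value was 1.98 times the naive value, a difference of 0.98 in log2(FPKM + 1), just under the 2-fold bar. Its side of that bar depends on the scaling: relative to the median of all compared loci the difference was 1.14, and relative to that of the abundant loci it was 1.07, both past 2-fold. The locus has status FAIL in the authors' deposited table, which marks a comparison that could not be completed, so the p-value and q-value of 1 listed for it are placeholders, and it was kept out of the counts above. Of the 19 loci with this status, 7 had a higher value in pretreated cells. Thbs1 had the highest ratio of the 19, and the next ratio was 1.48. Among the 711 abundant loci, which do not include Thbs1, 5.49% had a difference as high. In naive cells Thbs1 stood just below Col1a2, with a Col1a2 to Thbs1 ratio of 1.09. In pretreated cells that ratio was 0.311, so the order of these genes was turned, and Thbs1 was close to Fn1, with an Fn1 to Thbs1 ratio of 1.02.

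Acta2, the gene of alpha smooth muscle actin (XLOC_013455, chr19:34314827-34329826), was the most abundant of the 6 genes in both libraries. It had 3578 FPKM in naive cells and 3181 FPKM in pretreated cells. The difference of -0.17 in log2(FPKM + 1) lies at the median of all loci (-0.16), and the authors' deposited table gives a q-value of 0.916. Measured against Acta2, Col1a1 went from 0.910 of its level in naive to 0.366 in pretreated cells. Fn1 went from 0.483 to 0.302 of the Acta2 level, Col1a2 from 0.146 to 0.0921 and Col3a1 from 0.0311 to 0.0217. Thbs1 went the other way, from 0.133 to 0.296 of the Acta2 level. By level, the order in naive cells was Acta2, Col1a1, Fn1, Col1a2, Thbs1 and Col3a1, and in pretreated cells it was Acta2, Col1a1, Fn1, Thbs1, Col1a2 and Col3a1. Which neighbours in this order differ beyond the spread between cultures cannot be told with 1 library each.

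**Figure D2:**
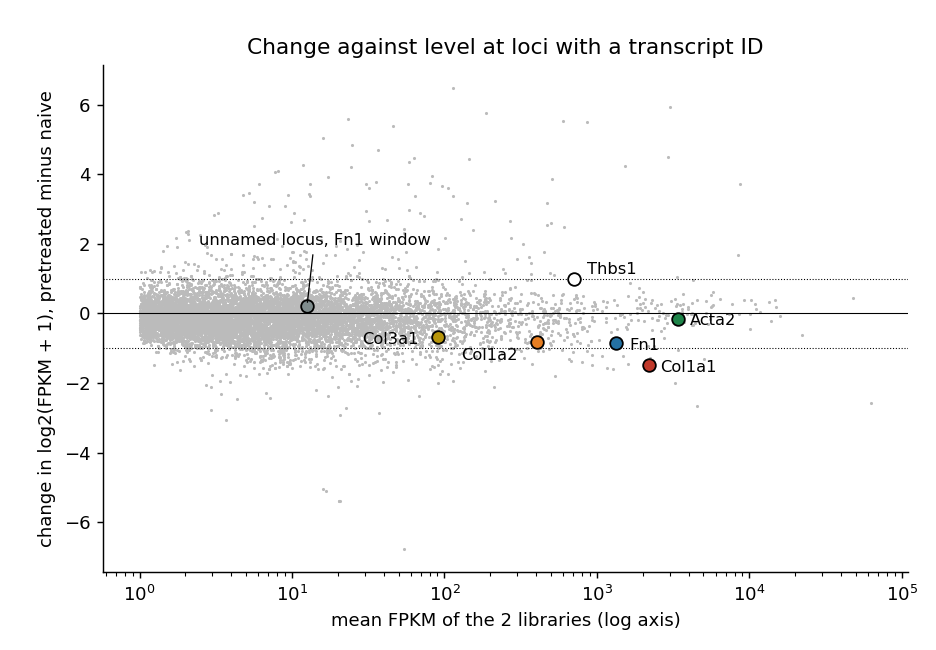
Difference in log2(FPKM + 1), pretreated minus naive, against the mean FPKM of the 2 libraries (log axis); grey points are the 9227 compared loci with a transcript ID, dotted lines mark 2-fold, and the open point is Thbs1. Col1a1 lies beyond the lower 2-fold line at -1.48, Col1a2, Col3a1 and Fn1 lie between that line and 0, and Acta2 lies near 0 at -0.17.

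Together the 6 genes held 1.21% of the summed FPKM of loci with a transcript ID and a span of at least 300 bp in naive cells and 0.723% in pretreated cells. Col1a1 alone went from 0.409% to 0.127%. The summed FPKM itself was higher in pretreated cells, at 914561 against 796159 in naive cells. These shares therefore fell by more than the FPKM values did. Few other loci shared both levels with a member. Within 0.1 in log2(FPKM + 1) in both libraries there were 0 other compared loci for Col1a1 and Col1a2, 1 for Thbs1, 2 each for Fn1 and Acta2, 4 for Col3a1 and 45 for the unnamed locus in the Fn1 window. With 2 libraries, likeness of pattern between genes was not ranked.

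The size of the error in the authors' test differed among the members. The deposited test statistic gives back the deposited p-value through the normal distribution, with a largest gap of 2.86e-06, so the standard error of the log2 ratio that the test used is the log2 ratio divided by the statistic. How the authors' model sets this error is not given in the sources used here. With 1 library per condition, the error cannot rest on measured variation between cultures of the same condition. It was 0.82 for Col1a1, 0.78 for Acta2, 0.61 for Col1a2, 0.46 for Col3a1, 0.40 for the unnamed locus and 0.32 for Fn1. The 95% interval of the log2 ratio ran from -3.09 to 0.12 for Col1a1, from -2.02 to 0.36 for Col1a2 and from -1.59 to 0.22 for Col3a1. For Fn1 it ran from -1.48 to -0.22, the 1 interval of a tested member that leaves out 0. That of Acta2, from -1.70 to 1.37, holds both a 2-fold fall and a 2-fold rise, so its small difference does not show that Acta2 stayed level.

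**Figure D3:**
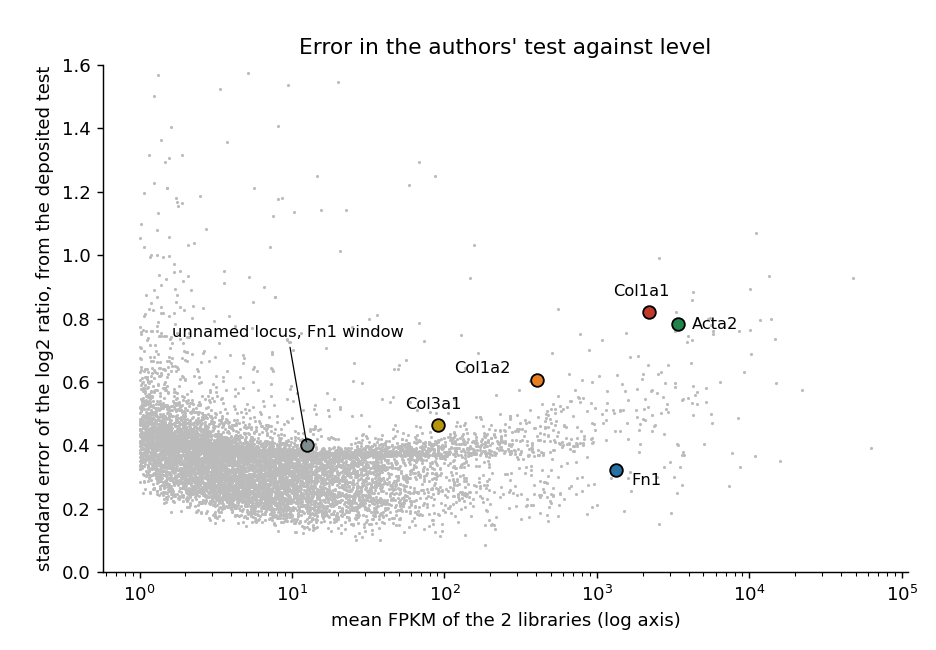
Standard error of the log2 ratio, taken from the deposited test, against mean FPKM on a log axis; grey points are compared loci with a transcript ID (13 loci lie above the axis limit of 1.6), and coloured points are the 6 tested members. Col1a1 and Acta2 lie high among loci of like abundance, at 0.82 and 0.78, and Fn1 lies low, at 0.32.

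The size of this error varied with the level, and not steadily. The median was 0.36 at the 5708 loci with a mean FPKM from 1 to 10, 0.33 at the 2791 loci from 10 to 100, 0.38 at the 576 loci from 100 to 1000 and 0.53 at the 135 loci of 1000 FPKM or more. Of those 135 loci, 6.67% had an error as large as that of Col1a1, 11.1% one as large as that of Acta2, and 88.9% one as large as that of Fn1. The same class held 18 loci past 2-fold, of which the authors' deposited table called 13, or 72.2%, against 77.8% of the loci past 2-fold from 100 to 1000 FPKM, 93.5% from 10 to 100 and 88.0% from 1 to 10. Thus a 2.80-fold difference at Col1a1 went uncalled while a 1.80-fold difference at Fn1 had the lower p-value.

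Other genes of matrix assembly, contraction and TGF-beta signalling were drawn from 7 lists with 117 symbols. The table has no symbols, so a listed gene was used where the length of its locus and its distance to neighbouring loci matched those of that gene in the GENCODE annotation, the length exactly and the distance within 2000 bp. This identified 9 of the 117, which are those with matching lengths and no sample of the lists by level or change. Of the 9, 8 were compared, with 6 differences below 0 and 2 above, and a median of -0.18, beside 62.8% below 0 and a median of -0.16 over all compared loci. The authors' deposited table called 1 of these 8 lower and 0 higher, against 11.9% and 3.91% of all tested loci, so these counts do not set the 8 genes apart.

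That one is Fbn1, which encodes fibrillin-1, the main protein of microfibrils in the matrix. It had 67.4 FPKM in naive cells and 30.8 FPKM in pretreated cells, 2.19-fold lower, with a q-value of 0.00215 in the authors' deposited table. Fbln5, the gene of the elastic fibre protein fibulin-5, had 48.5 FPKM in naive cells and 69.1 FPKM in pretreated cells and missed a call, with a q-value of 0.0673 in the authors' deposited table. The laminin chain gene Lama4 had 4.36 FPKM in naive cells and 2.48 FPKM in pretreated cells, with a q-value of 0.0548 there, and the laminin gene Lamc1 had 3.44 and 2.77 FPKM. Matrix genes in this small set thus lay on both sides of 0. Col16a1, a collagen that associates with fibrils, had 1.22 FPKM in naive cells and 1.04 FPKM in pretreated cells.

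P4ha1 encodes a subunit of the prolyl hydroxylase that stabilises the collagen helix, and its level was 124 FPKM in naive cells and 122 FPKM in pretreated cells. The 95% interval of its log2 ratio ran from -0.50 to 0.45. Skil, a repressor of SMAD signalling that is itself induced by TGF-beta, had 4.19 FPKM in naive cells and 2.64 FPKM in pretreated cells, with a q-value of 0.0617 in the authors' deposited table. For the integrin subunit gene Itgb5 the levels were 9.27 and 12.2 FPKM. Ddr1, a collagen receptor kinase, was at 0.316 and 0.541 FPKM and fell under the minimum level. No gene of the contractile list, of the protease list or of the 24 cell type markers was identified in this way, so the labelled cell type was not checked against its markers, and other cell types were not checked for.

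**Figure D4:**
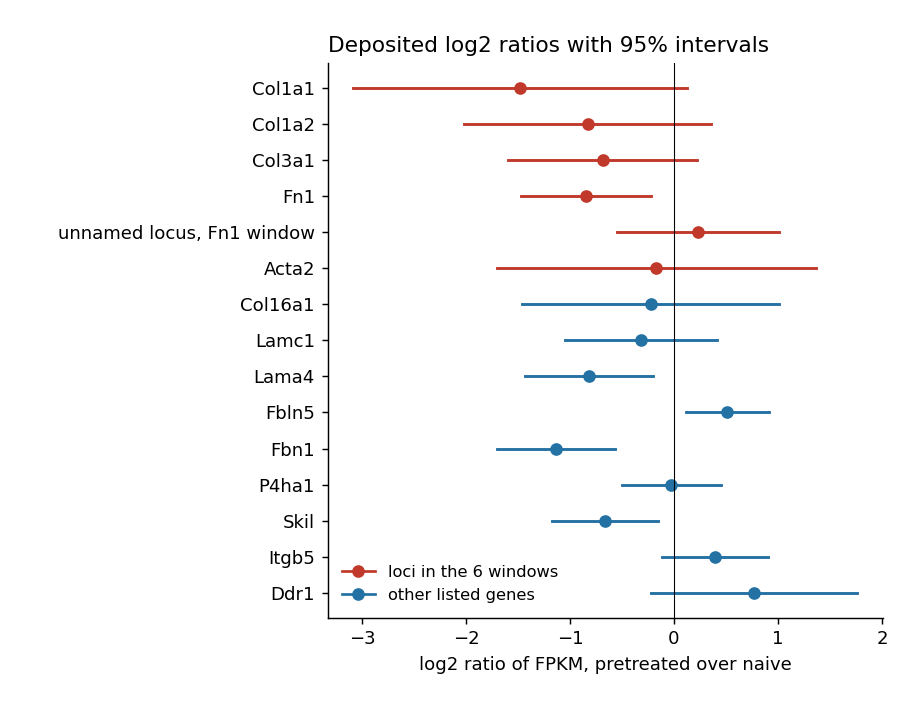
Log2 ratios of FPKM from the authors' deposited table, pretreated over naive (points), with 95% intervals from the error in the deposited test (lines), for the 6 tested loci in the windows (red) and the 9 other listed genes (blue). Thbs1 has no deposited test and is not drawn. The intervals of Fn1, Lama4, Fbn1 and Skil lie below 0, that of Fbln5 lies above 0, and those of the 3 collagen members, the unnamed locus and Acta2 cross it.

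The nearest locus with a transcript ID on each side of the 6 genes gave 12 flanking loci, of which 8 reached the minimum level. Their differences ran from -0.68 to 0.99, with 6 below 0, beside 62.8% of all compared loci. The authors' deposited table called 1 of the 8 lower and 1 higher, against 11.9% and 3.91% of all tested loci, and these 2 loci lie close to a member. One, XLOC_013039 (chr19:34266760-34314818), ends 8 bp before the Acta2 locus and had 11.9 FPKM in naive cells and 7.03 FPKM in pretreated cells, with a q-value of 0.00408. The other, XLOC_015666 (chr2:117647664-117936938), ends 697 bp before the Thbs1 locus. It had 1.16 FPKM in naive cells and 3.29 FPKM in pretreated cells, with a q-value of 0.0356. Thbs1, whose comparison has status FAIL, also had the higher value in pretreated cells. Whether reads from Thbs1 were counted at this much lower locus was not tested. Both loci flanking Col1a1 were below the minimum level, with at most 0.135 FPKM.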

How the data were processed

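Polyadenylated RNA from MEFs was sequenced, and 1 table comparing the 2 libraries at 1 h was used. The submitters' processing notes name TopHat, Cufflinks 1.2.1 and mm9. Per the file headers, the authors deposited an FPKM value for each library and locus, the log2 ratio, its test statistic with p-value and q-value, and a status; scaling between libraries is not given in the sources used here. The description of each sample names scTSS-seq while the series title names RNA-seq; the values were treated as RNA-seq. The sample names written in every row showed which library each column of values belongs to.

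Differences were computed as log2(FPKM + 1), pretreated minus naive, which understates changes at low levels, at loci of mean FPKM at least 1, leaving out loci of status FAIL or HIDATA (Python 3.11.15, pandas 2.3.3, scipy 1.17.1). No test across samples was possible with 1 library per group. Counting steps were tested on simulated data. Every locus in the 6 windows is named in the text; where 2 loci shared a window, the one with more transcript IDs was taken as the named gene. Deposited starts were raised by 1, which gave 2883 rather than 1492 exact length matches to GENCODE M21 on the same chromosome. Listed genes were identified by such a match, unique on its chromosome, with neighbouring matches in the same order and, a condition added after the data were seen, at the same distance within 2000 bp. With this, 1360 loci passed, and 0 passed against a wrong chromosome. The same neighbours enclosed all 6 named members in GENCODE as in the table (for Col1a2, 1 side only), but 0 of the 6 passed the full match by their own length, so their names rest on the windows. No coordinate was converted. All identified listed genes are named. Members and lists were chosen with earlier results of these data known. Alternatives changed the pseudocount, centring, filter, fold threshold and adjustment of p-values.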

Additional observations from a re-analysis of the deposited data

How the results depend on the processing

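The differences of Col1a1, Col1a2, Col3a1, Fn1 and Acta2 kept their sign and their side of the 2-fold bar under 5 alternatives each: a pseudocount of 0.1, no pseudocount, and centring on the median of all loci, of loci with a transcript ID or, added after the data were seen, of abundant loci. Col1a1 ranged from -1.48 to -1.32, Fn1 from -0.85 to -0.69, Col1a2 from -0.83 to -0.67, Col3a1 from -0.69 to -0.52 and Acta2 from -0.17 to -0.01. At levels this high a pseudocount cannot move a value much, and centring shifts every locus alike. The lowest mean of a member was 12.5 FPKM, so dropping the filter or raising it to 5 FPKM could not change the counts that follow. The number of members at least 2-fold lower was 1 under 11 of 14 alternatives, 4 with a 1.5-fold threshold (with or without loci of status FAIL) and 0 with a 4-fold threshold. The number at least 2-fold higher was 0 under 10 of 14. Thbs1, of status FAIL, was left out of it; with such loci kept, an alternative added after the data were seen, it was 0 without centring, but 1, Thbs1, under each of the 3 centrings and at 1.5-fold. Calls stayed at 0 with adjustment over loci with a transcript ID, where the q-value of Fn1 was 0.0564. They were also 0 at a q-value under 0.01, which had to follow because a stricter bar cannot add a call. With 1 library a group, leaving out a replicate was not possible. No paired analysis was possible because a group holds 1 library.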
